A study of Mus musculus with 3 samples.

Results

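Fabp1, Cd36, Slc27a2, Acsl1 and Dbi carry a long-chain fatty acid from the cell surface to its activated form inside a hepatocyte. These 5 genes were chosen by name, and every event of the deposited tables whose gene identifier was that of 1 of the 5 was taken. The 5 genes are among 13252 genes with a value, and they accounted for 28, 32 and 34 listed events in replicates 1, 2 and 3. RNA sequencing was done on 3 liver libraries labelled wild type (WT), healthy, male and C57BL/6, an inbred laboratory strain. The series asks how driver genes interact in hepatocellular carcinoma and compares tumours with normal liver; these libraries are normal liver, and tumours were not analysed here. The labels give neither an age nor a treatment, and they do not say whether the replicates are separate animals, so the spread between libraries may be technical in part.

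Long-chain fatty acids reach the liver bound to albumin or in lipoprotein remnants. CD36 is a scavenger receptor of the plasma membrane that binds them, and the fatty acid transport protein FATP2, encoded by Slc27a2, joins uptake to activation with coenzyme A. Long-chain acyl-CoA synthetase 1 (Acsl1) makes acyl-CoA at mitochondria and the endoplasmic reticulum, the liver fatty acid binding protein (Fabp1) holds fatty acids in the cytosol, and the acyl-CoA binding protein (Dbi) holds their activated form. Fabp1, Acsl1, Slc27a2 and Cd36 are known targets of the fatty acid sensor PPAR-alpha in liver.

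The libraries differed in which of 2 starts Acsl1 used, so the RefSeq promoter windows at both are shown here. The window of Fabp1, the most abundant of the 5 genes, is shown with them. Fabp1 had 1 listed start, as did Slc27a2. The windows shown (GRCm38.p6) run from 250 bases before to 50 after the RefSeq start, 5′ to 3′ on the plus strand. Capitals mark matches on either strand to the TATA box TATAAA, to the CCAAT box, to the GC box GGGCGG and to a loose DR1 element. A DR1 element, the kind of site bound by PPAR and its partner RXR, is a pair of AGGTCA half-sites with 1 base between them, and the loose form allows any base at the fourth position of the first half-site. The downstream start of Acsl1 lies 19929 bases from the upstream one.
Fabp1, chr6:71199629-71199928: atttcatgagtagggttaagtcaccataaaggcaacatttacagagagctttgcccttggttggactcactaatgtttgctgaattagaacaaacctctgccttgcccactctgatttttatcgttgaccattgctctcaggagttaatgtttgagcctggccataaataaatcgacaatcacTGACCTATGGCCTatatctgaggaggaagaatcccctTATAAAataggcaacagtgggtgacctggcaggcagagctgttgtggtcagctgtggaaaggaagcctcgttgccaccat
Acsl1 upstream, chr8:46470787-46471086: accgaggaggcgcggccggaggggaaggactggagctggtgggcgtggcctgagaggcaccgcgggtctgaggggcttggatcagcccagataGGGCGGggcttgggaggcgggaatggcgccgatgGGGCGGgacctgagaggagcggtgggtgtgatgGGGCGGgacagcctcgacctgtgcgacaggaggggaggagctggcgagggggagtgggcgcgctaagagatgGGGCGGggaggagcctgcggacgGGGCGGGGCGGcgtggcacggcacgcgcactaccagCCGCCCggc
Acsl1 downstream, chr8:46490716-46491015: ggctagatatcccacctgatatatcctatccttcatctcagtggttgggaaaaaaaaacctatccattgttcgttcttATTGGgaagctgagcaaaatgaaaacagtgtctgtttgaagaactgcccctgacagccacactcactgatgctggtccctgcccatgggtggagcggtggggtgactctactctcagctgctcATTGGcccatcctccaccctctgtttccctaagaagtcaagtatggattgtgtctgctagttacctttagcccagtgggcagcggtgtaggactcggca

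The values are FPKM, a measure per length of transcript and per size of library, so that levels of different genes can be set side by side. A gene's value in a library is the largest of 3 quantities: its summed first exons, its summed last exons and its largest internal event. A gene's events at 0 are not listed, and no table holds counts, which leaves sequencing depth unknown and values without a counting interval. The tables went against 1 of the labels. The libraries are labelled male, but Xist, made in cells with an inactive X chromosome, had a largest event of 65.7, 53.9 and 46.4 FPKM in replicates 1, 2 and 3, whereas the genes Ddx3y, Uty, Kdm5d and Eif2s3y of the Y chromosome held 0 events in each library. Liver Cd36 is known to be higher in female mice, and the part of sex in the levels below was not tested. The liver label was met by the hepatocyte markers, of which all 5 had a value (Alb, Apoa1, Ttr, Cps1 and Cyp2e1), with summed FPKM between 33190 and 37816.

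Fabp1 (ENSMUSG00000054422, GRCm38 chromosome 6, 71199827 to 71205023, plus strand) had 6847, 7419 and 5187 FPKM in replicates 1, 2 and 3, a mean of 6484 ± 1159 (SD, n = 3). Replicate 3 was the lowest, and the gene ranked between 3rd and 4th of all genes in every library. It exceeded each of the other genes of fatty acid uptake and activation described here. Its annotation holds 1 transcript, and the tables listed 1 first exon (167 bases) and 1 last exon (120 bases), both at the annotated position and both with the same FPKM in each library. No exon was listed as skipped and no intron as retained.

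In the Fabp1 window the match to the loose DR1 element began 67 bases before the RefSeq start, on the minus strand, and TATAAA began 30 bases before it, on the plus strand. Of 32851 RefSeq promoter windows of the same length, 0.0944% held the first motif and 13.6% the second. The strict DR1 element, present in 0.0396% of windows, was in none of the 7 windows of these genes. The Fabp1 match departs from it only at the base that the loose form leaves free. The share of windows with the loose form is therefore a description and not a test of how rare such a match is. The first exon listed for Fabp1 started 52 bases upstream of the RefSeq start, and therefore before the TATAAA match. The listed start is the annotated one in GENCODE, and the tables do not measure the start to the base.

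Dbi (ENSMUSG00000026385, chromosome 1, 120113280 to 120121078, minus strand) was the second of the 5, with 933, 987 and 806 FPKM and a mean of 909 ± 93.0 (SD, n = 3). The libraries lay close together, and its coefficient of variation of 10.2% was the smallest of the 5 genes. Among the 9630 genes averaging 1 FPKM or more, 77.5% had a larger one, and the median was 18.2%.

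Dbi used 1 first exon almost throughout. The exon of 134 bases that begins the main transcript, Dbi-201, carried 97.4, 96.9 and 98.3% of the summed first exons (97.5% ± 0.71, SD, n = 3). The exon holds the start codon of a coding sequence of 261 bases. A first exon that starts 940 bases downstream and belongs to Dbi-202, with a coding sequence of 189 bases, carried 2.10, 1.15 and 1.35%. A noncoding transcript that starts 908 bases downstream, Dbi-203, had 3.40, 17.9 and 1.92 FPKM, so its share was higher in replicate 2 than in the other libraries. The splice site of Dbi-207, whose coding sequence is longer at 405 bases, carried between 0.0865 and 0.154%. For that exon the tables give the start of the overlapping main exon, so its own start cannot be read from them. The last exon of 254 bases, shared by these transcripts, had 932, 986 and 805 FPKM, close to the summed first exons.

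Slc27a2 (ENSMUSG00000027359, chromosome 2, 126552407 to 126588243, plus strand) had 301, 496 and 398 FPKM in replicates 1, 2 and 3, a mean of 398 ± 97.9 (SD, n = 3). Replicate 2 was the highest and replicate 1 the lowest, by a factor of 1.65. The tables gave 1 first exon of 1226 bases, which holds the start of the coding sequence of the main transcript Slc27a2-201. A cassette exon of 132 bases, annotated in the noncoding transcript Slc27a2-202, was left out of all of the listed FPKM in replicates 1 and 3, and 0.0169% included it in replicate 2. No last exon was listed for the gene, and the second annotated protein-coding start, that of Slc27a2-203, had no listed event. The RefSeq start of Slc27a2 lies 617 bases downstream of the listed one, inside the first exon.

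Acsl1 (ENSMUSG00000018796, chromosome 8, 46471037 to 46536051, plus strand) had 133, 269 and 194 FPKM, a mean of 199 ± 68.6 (SD, n = 3). Replicate 2 was again the highest and replicate 1 the lowest, by a factor of 2.03. What separated the libraries further was the first exon. The upstream first exon (194 bases, chromosome 8, 46471037 to 46471230) had 114, 139 and 27.4 FPKM in replicates 1, 2 and 3. The downstream first exon (196 bases, 46490966 to 46491161) had 17.7, 130 and 165 FPKM. Replicate 1 took most of its Acsl1 transcripts from the upstream start, replicate 3 from the downstream one, and replicate 2 from both about equally.

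As a share of the summed first exons, the upstream exon carried 85.9, 51.6 and 14.2% (50.6% ± 35.9, SD, n = 3), and the downstream exon 13.3, 48.4 and 85.1% (48.9% ± 35.9, SD, n = 3). The mean share of the upstream exon was 32.9% without replicate 1 and 68.8% without replicate 3, so no single share describes these libraries. The upstream exon differed by 71.8 points between libraries for a gene whose total differed by a factor of 2.03. Of 1416 genes with at least 2 first exons listed and at least 10 FPKM of summed first exons in each library, 7.91% had a main first exon whose share differed by at least 50 points, and the median difference was 5.84 points. Taking for each gene the first exon with the highest mean FPKM, which for Acsl1 is the downstream one, Acsl1 ranked 55th of the 1416, with 71.8 points, Cd36 342nd with 18.2 points and Dbi 1010th with 1.41 points.

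Both first exons of Acsl1 are noncoding and join the same second exon of 227 bases, in which the coding sequence of 2097 bases starts at position 46492832. The coding sequence annotated for both transcripts, Acsl1-201 and Acsl1-203, is therefore the same length from the same start. The 2 exons are told apart by reads in 194 and 196 bases of sequence and by their junctions. Acsl1-201 and Acsl1-203 also differ in length, at 3897 and 3429 bases, so they differ outside these exons too. How the authors' software divided the shared reads between the transcripts was not tested. The remaining first exons were small. The most abundant, of 500 bases and belonging to a retained-intron transcript, had 0.99, 0.12 and 1.32 FPKM.

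The windows at the starts of Acsl1 differed in composition. The upstream window had 74% G and C, 30 CG dinucleotides and 7 matches to GGGCGG, 2 of which overlap each other. The downstream window had 50% G and C, 4 CG dinucleotides, no match to GGGCGG and 2 matches to CCAAT, beginning 172 and 49 bases before the start. Over all 32851 windows the median was 52.7% G and C with 7 CG dinucleotides, 35.7% held GGGCGG and 37.4% held CCAAT. Both listed first exons began exactly at the RefSeq starts. Neither window held TATAAA or the loose DR1 element within these 300 bases.

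**Figure D1:**
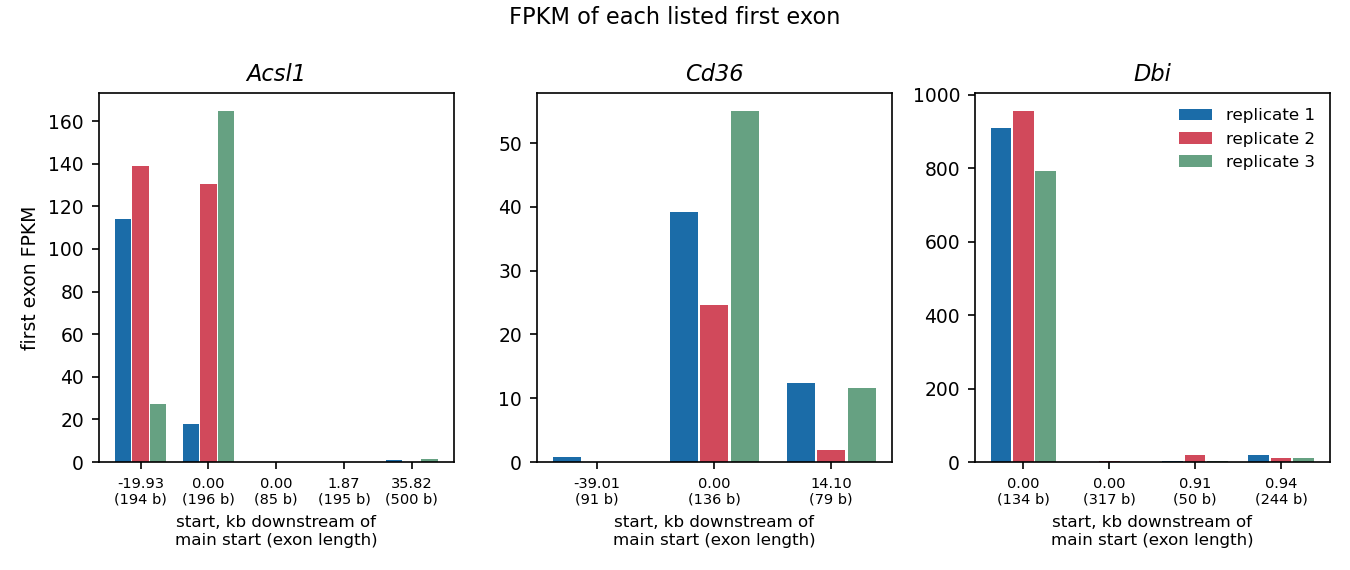
FPKM of each listed first exon of Acsl1, Cd36 and Dbi in replicates 1, 2 and 3 (bars), by the distance of its start from that of the first exon with the highest mean, in kb, with the exon length in bases below. The upstream Acsl1 exon stands at 114, 139 and 27.4 FPKM and the downstream one at 17.7, 130 and 165, whereas Dbi rests on 1 exon in every library.

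The body of Acsl1 was spliced alike in the 3 libraries. Transcripts of the main form of the exon of 118 bases that follows the second exon had 132, 269 and 192 FPKM, and an intron listed as retained was spliced out in 99.9, 99.9 and 100% of the FPKM of its 2 forms. An exon of 177 bases between the upstream start and the second exon was included only in replicate 2, at 0.090 FPKM. Acsl1 also has 2 alternative coding exons of 78 bases each, 64 bases apart, of which a transcript carries 1. In the acyl-CoA synthetase family such exons are known to encode alternative forms of a gate region at the fatty acid site. The exons are printed because the liver libraries used the first of them for nearly all transcripts; capitals mark the bases at which they differ, 36 of 78 (identity 53.8%).
Acsl1 first alternative exon, chr8:46521268-46521345: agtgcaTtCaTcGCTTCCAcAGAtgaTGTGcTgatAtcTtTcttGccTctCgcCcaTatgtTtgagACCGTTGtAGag
Acsl1 second alternative exon, chr8:46521410-46521487: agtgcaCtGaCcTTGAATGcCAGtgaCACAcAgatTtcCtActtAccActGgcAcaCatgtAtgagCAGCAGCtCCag
The form with the second exon was not listed in replicate 1 and had shares of 0.00076% and 0.030% in replicates 2 and 3. In the annotation it occurs in 1 transcript, Acsl1-202, which also has its own start, at the start codon. That first exon of 195 bases had the same 0.0020 and 0.058 FPKM, so the tables do not show the second exon in any other transcript.

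Cd36 (ENSMUSG00000002944, chromosome 5, 17781690 to 17888801, minus strand) was the lowest of the 5, with 52.4, 28.5 and 66.6 FPKM and a mean of 49.2 ± 19.3 (SD, n = 3). Replicate 2 was the lowest library here, the reverse of the other 4 genes, and the ratio of the highest to the lowest library, 2.34, was the largest of the 5. A coefficient of variation of 39.3% placed it among the more variable genes: 15.5% of the 9630 genes averaging 1 FPKM or more had a larger one. Both figures depend on the gene value, which came from first exons in replicate 3 and from the last exon in replicate 2. The last exon alone had 51.7, 28.5 and 44.8 FPKM in replicates 1, 2 and 3. Its spread was smaller, with a ratio below the 2.03 of Acsl1. CD36 is also made by macrophages, endothelium and platelets, and in whole tissue fewer cells of a type and less RNA per cell cannot be told apart. All 7 Kupffer cell and macrophage markers had a value, with a summed level of 87.3, 136 and 127 FPKM in replicates 1, 2 and 3; Adgre1 was not listed in replicate 1. All 6 markers of sinusoidal endothelium had a value, with a sum of 49.2, 60.6 and 56.3 FPKM. The single markers did not all follow the sums. Of the Kupffer cell and macrophage markers 4 of 7 were highest in replicate 2, Cd5l and Vsig4 were highest in replicate 3, and Cd68 was lowest in replicate 2 as Cd36 was, at 3.14, 2.33 and 5.78 FPKM. Of the endothelial markers 4 of 6 were highest in replicate 2, Kdr was highest in replicate 3 and Lyve1 in replicate 1. The part of these cells in the Cd36 level was not tested. Of the 3 platelet markers Pf4 and Itga2b had a value and Gp9 was not listed, with sums of 1.33, 2.67 and 1.82 FPKM.

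Cd36 transcripts began at 3 first exons, all noncoding. The main one (136 bases, 17849657 to 17849792) had 39.2, 24.6 and 55.0 FPKM, or 74.9, 93.1 and 82.6% of the summed first exons. A first exon 14096 bases further downstream (79 bases, 17835618 to 17835696) had 12.4, 1.84 and 11.6 FPKM, or 23.7, 6.95 and 17.3%. Replicate 2 was low for both, and lower by a larger factor for the downstream start. The most distant one, 39009 bases upstream of the main start, had 0.73 FPKM in replicate 1, was not listed in replicate 2 and had 0.068 FPKM in replicate 3.

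The sequence of the downstream Cd36 first exon also serves as an internal exon. Transcripts from the main start kept a noncoding exon of 54 bases from it in 94.3, 98.8 and 96.9% of their FPKM (96.7% ± 2.27, SD, n = 3), so most transcripts from the main start and those from the downstream start both carried the sequence of that exon. From the most distant start, by contrast, nearly all of the FPKM left it out: 0.73 against 0 FPKM in replicate 1 and 0.068 against 0.00024 FPKM in replicate 3. The RefSeq start of Cd36 lies 200 bases upstream of the downstream first exon and not at the main one, and its window held 2 matches to GGGCGG and 1 to CCAAT. All 5 genes had a window in the RefSeq table. The last exon of 1660 bases had 51.7, 28.5 and 44.8 FPKM, below the summed first exons in replicates 1 and 3 (52.4 and 66.6 FPKM) and above them in replicate 2 (26.4 FPKM), where the last exon gave the gene's value.

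Levels of the 5 genes ran in the order Fabp1, Dbi, Slc27a2, Acsl1 and Cd36 in each of the 3 libraries. On the log2(FPKM + 1) scale Fabp1 exceeded Dbi by 2.82 ± 0.12 (SD, n = 3), Dbi exceeded Slc27a2 by 1.21 ± 0.36 and Slc27a2 exceeded Acsl1 by 1.03 ± 0.15. Acsl1 exceeded Cd36 by 2.02 ± 1.03, with 1.32, 3.20 and 1.52 in replicates 1, 2 and 3, and by 1.42 without replicate 2. Each difference between neighbours was larger than its SD and had the same sign in 3 of 3 libraries. The exact two-sided sign-flip permutation test gave p = 0.25 for each of the 4, which is the smallest value that 3 libraries can give, so none could pass a threshold of 0.05.

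**Figure D2:**
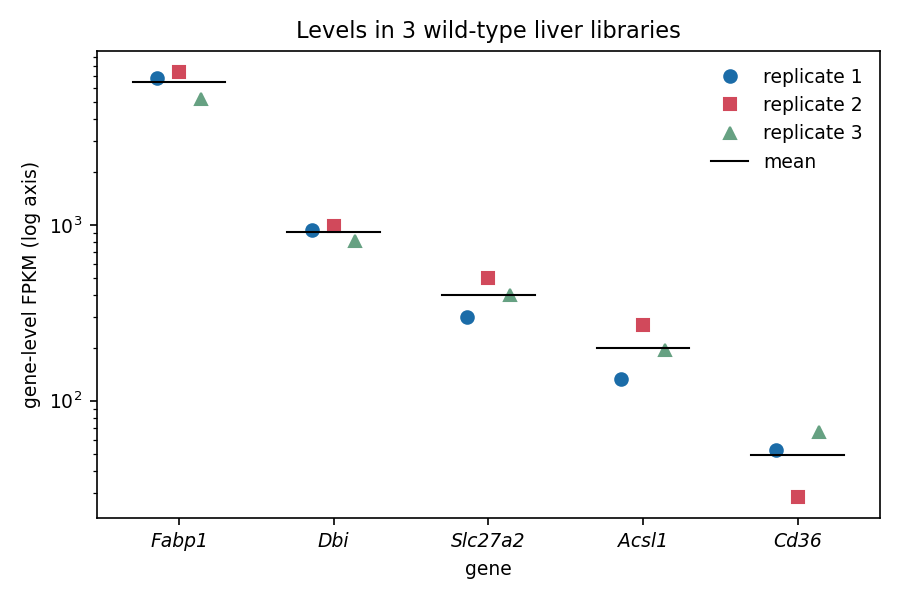
Gene-level FPKM (log axis) of the 5 genes in replicates 1, 2 and 3 (circles, squares, triangles), with the mean as a line. The order from Fabp1 at 6484 to Cd36 at 49.2 FPKM was the same in every library, and Cd36 is the only gene of the 5 with replicate 2 at the bottom.

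The libraries deviated differently for different genes. Replicate 2 was the highest library for 4 of the 5 genes, the exception being Cd36; among the 9630 genes averaging 1 FPKM or more, replicate 2 was the highest in 32.8% and the lowest in 30.6%. Cd36 was highest in replicate 3, as were 31.4% of those genes, and none of the 5 was highest in replicate 1, against 35.7% of those genes. By its last exon alone, however, Cd36 was highest in replicate 1, at 51.7 FPKM against 44.8 FPKM in replicate 3. The deviations of replicate 2 from the gene's mean log2(FPKM + 1) were 0.21 for Fabp1, 0.12 for Dbi, 0.35 for Slc27a2 and 0.50 for Acsl1, against -0.69 for Cd36. In replicate 1 Slc27a2 and Acsl1 were low, at -0.38 and -0.52, while Fabp1 and Dbi were close to their means, at 0.095 and 0.044. In replicate 3 Fabp1 and Dbi were the low ones, at -0.31 and -0.17. The binding proteins Fabp1 and Dbi thus shared the rank order of the libraries, and the activating enzymes Slc27a2 and Acsl1 shared another. With 3 libraries such shared orders are a description and were not tested.

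**Figure D3:**
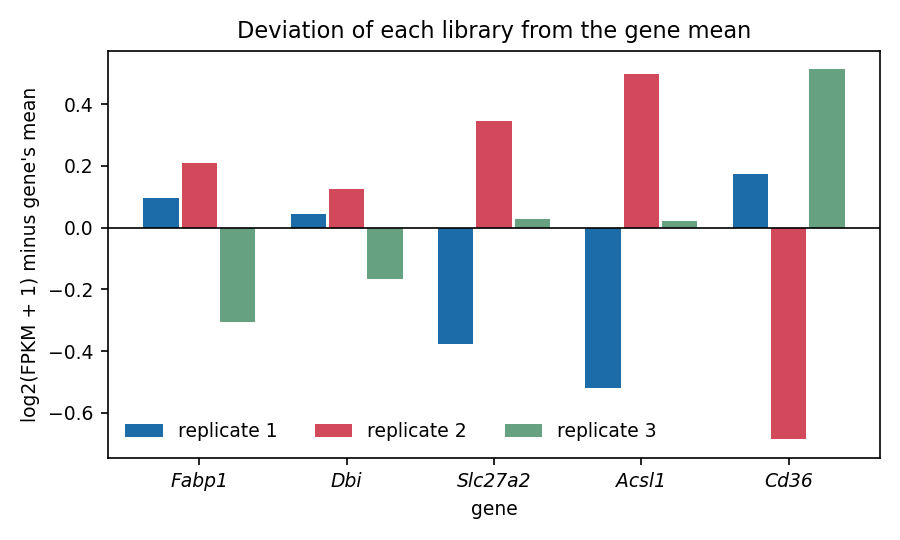
Deviation of each library from the gene's mean on the log2(FPKM + 1) scale (bars; replicates 1, 2 and 3). Fabp1 and Dbi are lowest in replicate 3, Slc27a2 and Acsl1 are lowest in replicate 1, and Cd36 is lowest in replicate 2 at -0.69.

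The genes closest in level over the 3 libraries were named by the root mean square difference of log2(FPKM + 1), among 10737 genes with a value in every library. For Cd36 they were the glycogen synthase Gys2 (59.1, 30.9 and 62.8 FPKM, difference 0.13) and the clock output factor Tef (58.8, 30.2 and 59.1 FPKM, difference 0.14). Both were low in replicate 2, which follows from choosing them by likeness to Cd36 in these libraries. For Slc27a2 they were the paraoxonase Pon1 (difference 0.16) and the fatty acid hydroxylase Cyp4a10 (0.19). For Acsl1 they were Cyp2c40 (0.16) and the retinol saturase Retsat (0.17), and for Dbi the cysteine dioxygenase Cdo1 (0.22) and Hpd, an enzyme of tyrosine breakdown (0.27). The nearest genes to Fabp1, the apolipoproteins Apoe and Apoa2, were less alike, at 0.60 and 0.62. Cyp4a10 and Cyp2c40 belong to families of near-identical copies, which makes their values uncertain.

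Fabp1 stood far above its relatives. Of 9 genes of the fatty acid binding protein family 7 had a value and 5 a mean of at least 1 FPKM, a level reached by 72.7% of all genes with a value, and Fabp1 made up 98.8% ± 0.24 of the family's summed FPKM (SD, n = 3). The intestinal form Fabp2 was at 45.3 ± 10.7 FPKM, the epidermal form Fabp5 at 19.3 ± 4.72 FPKM, and the brain form Fabp7 at 2.65 ± 0.92 FPKM. Fabp4, the form of adipocytes and macrophages, had 15.5, 4.71 and 4.97 FPKM in replicates 1, 2 and 3, high in replicate 1 alone. Of the other adipocyte markers Cfd had 0.73 FPKM in replicate 1 and was not listed in the others, and Adipoq, Plin1 and Lep were not listed in any; their sum with Fabp4 was 16.2, 4.71 and 4.97 FPKM, and a part of adipocytes in it was not tested. The enterocyte marker Apoa4, also a liver gene, was likewise highest in replicate 1, at 309, 124 and 109 FPKM. So was Fabp2, a marker on the same list, at 57.4, 41.5 and 37.1 FPKM. The 3 enterocyte markers with a value summed to 367, 166 and 146 FPKM, and a part of enterocytes in these levels was not tested. Alpi was not listed, and Vil1 was at 0.36 FPKM in replicate 1 and not listed in the others. Fabp3 (1.06 FPKM in replicate 1) and Fabp12 (0.53 FPKM in replicate 2) were listed in 1 library each, and Fabp6 and Fabp9 in none.

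In the other families a second gene came closer to the member described. Of 6 fatty acid transport proteins 5 had a value and 4 a mean of at least 1 FPKM. Slc27a2 exceeded Slc27a5, the bile acid and very long-chain acyl-CoA ligase, by 0.62 ± 0.25 on the log2(FPKM + 1) scale, and Slc27a5 was at 255 ± 38.1 FPKM. The carriers of other tissues were far lower, with Slc27a4 at 7.17 ± 1.22 and Slc27a1 at 5.03 ± 0.87 FPKM, Slc27a3 at 0.71, 0.48 and 0 FPKM, and Slc27a6 not listed.

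Of 5 long-chain acyl-CoA synthetases 4 had a value, all of them above 1 FPKM. Acsl1 exceeded Acsl5, which acts at mitochondria and the endoplasmic reticulum, by 0.18, 1.13 and 0.66 on the log2(FPKM + 1) scale in replicates 1, 2 and 3, a mean of 0.66 ± 0.47 (SD, n = 3). Acsl5 was nearly level, at 117, 123 and 122 FPKM, so the size of that difference followed Acsl1. The 2 gene values rest on unlike parts. Acsl1 had no listed last exon, and the median of the synthetases fell from 5.22 to 3.36 with first exons alone. It was 2.88 with internal events alone, so the level of Acsl5 came from last exons. The difference between the 2 genes was not computed from the same part. Acsl3, a synthetase of lipid droplets, was at 10.4 ± 1.36 FPKM and Acsl4, which prefers arachidonic acid, at 5.85 ± 0.70 FPKM. Acsl6 was not listed.

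Of 7 genes with an acyl-CoA binding domain 6 had a value, all of them above 1 FPKM, and Dbi made up 84.2% ± 1.13 of their sum. Eci2, a peroxisomal isomerase that carries such a domain, was at 75.3 ± 12.4 FPKM and Acbd5, a peroxisomal tether, at 59.4 ± 8.69 FPKM. Acbd6 was at 16.9 ± 5.85, Acbd4 at 14.0 ± 6.52 and Acbd3, a Golgi protein, at 3.69 ± 0.62 FPKM, and Acbd7 was not listed. The excess of Dbi over Eci2 was 3.58 ± 0.097 on the log2(FPKM + 1) scale, larger and steadier than that of Slc27a2 or Acsl1 over the next gene of their families. For each of the 4 families the difference between its highest gene and the next had the same sign in 3 of 3 libraries, with p = 0.25 in the exact sign-flip permutation test, the smallest possible.

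**Figure D4:**
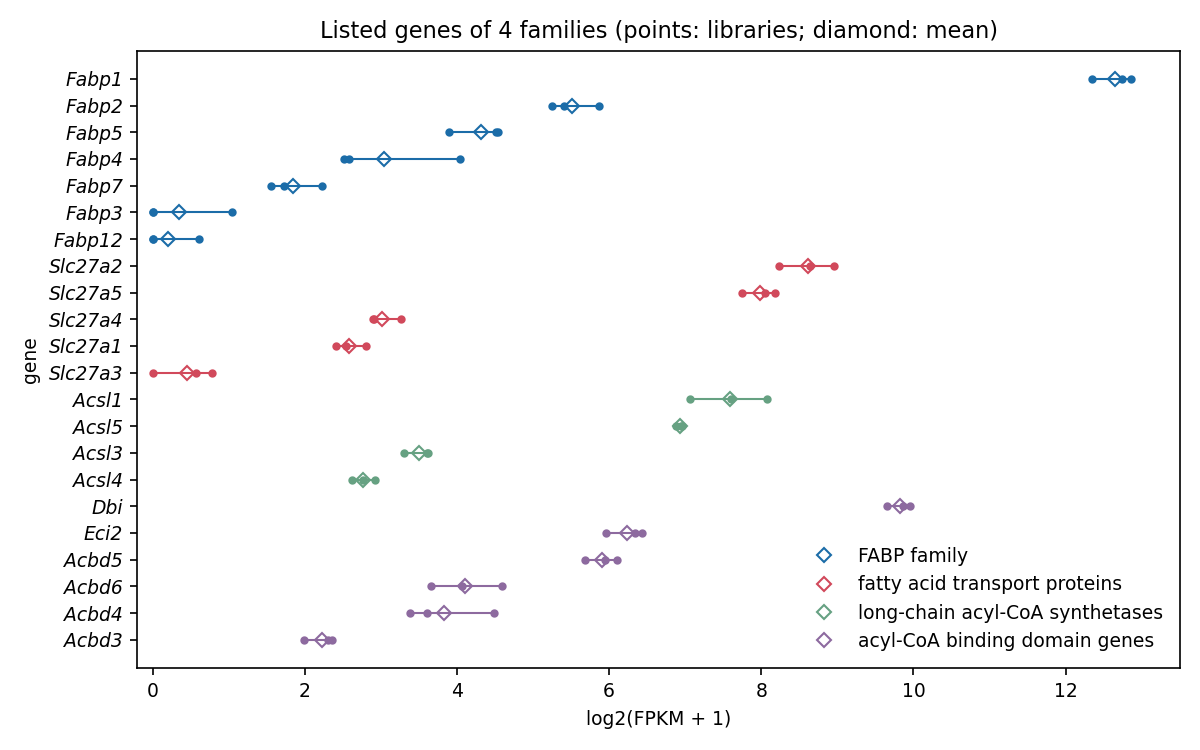
Listed genes of the 4 families on the log2(FPKM + 1) scale, with the 3 libraries as points, their range as a line and the mean as a diamond. Fabp1 lies 7.14 above Fabp2, whereas Slc27a2 and Acsl1 lie 0.62 and 0.66 above the next gene of their families.

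The genes of the steps around these 5 were counted against the same level of 1 FPKM, which 72.7% of all genes with a value reached. All 7 membrane and lumen uptake genes had a value and 6 had a mean of at least 1 FPKM; the highest was Got2, a mitochondrial aminotransferase also found as a fatty acid binding protein of the plasma membrane, at 156 ± 9.32 FPKM, and the lowest Cav1, the caveolar coat protein, at 0.64 ± 0.35 FPKM. All 9 genes that use activated fatty acids had a mean of at least 1 FPKM, from Dgat2, which makes triglyceride, at 148 ± 17.6 FPKM, to Dgat1 at 4.84 ± 0.93 FPKM. Acot1 and Acot2, thioesterases of this group, are near-identical copies with uncertain values. All 9 regulators also had a mean of at least 1 FPKM, the highest being the nuclear receptor Nr1i3 at 143 ± 24.0 FPKM and the lowest Ppard at 1.32 ± 0.10 FPKM.

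The median levels of the lists set these counts against the rest of the tables. On the log2(FPKM + 1) scale the median was 3.05 for the fatty acid binding proteins, 3.02 for the transport proteins, 5.22 for the synthetases and 5.01 for the acyl-CoA binding genes. It was 5.42 for the uptake genes, 4.94 for the users and 4.77 for the regulators, against 2.06 for all 13252 genes with a value and 2.77 for those averaging 1 FPKM or more. The medians hold only genes with a value, and genes that are not listed may still be expressed.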

How the data were processed

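RNA was sequenced from 3 WT liver libraries, each with 1 deposited table of transcript-structure events. The labels name poly(A) selection or rRNA removal without saying which was used. Per the file headers, the value of an event is an FPKM, as computed by the authors. Tools in the submitters' processing notes are HISAT2 2.0.1, cutadapt 1.9.1, DESeq2 and HTSeq 0.6.1, with the build mm9 and no roles. For the event tables themselves, the software is not given in the sources used. Of the first exons, 82.0 to 82.7% matched GENCODE M21 (GRCm38) exactly, so positions were read as GRCm38 and not as mm9.

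Repeated identical rows, 1440 to 1519 in a library, were dropped, leaving 71716 to 74243 events. Events of the 5 genes were taken by gene identifier. For other genes, first and last exons were placed at an annotated position, failing that at a splice site, and failing that by identifier; at most 1.65% could not be placed. Gene values, with a pseudocount of 1 on the log2 scale, were computed in Python 3.11.15 with pandas 2.3.3. Simulated gene values were recovered, but the summed first exons were always the largest quantity in that simulation. Gene values from last exons or internal events, and placement by position, were therefore not tested. The neighbours in the order were compared within libraries by an exact sign-flip permutation test. Named genes are the 5 genes, their families, the highest and lowest gene of each other list, and the 2 genes closest to each of the 5; the markers, Acot1 and Acot2 were named besides, Acot1 and Acot2 after their values had been seen. The 5 genes and the lists were chosen with earlier results of these data known, and the motifs and the comparison of first-exon shares over all genes with these values in view. All libraries form 1 group, so no contrast was made. Alternatives were other gene values, row handling, pseudocounts and leaving out each library. Promoter windows are from RefSeq (GRCm38.p6) and exon sequences from the GENCODE M21 transcripts.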

Additional observations from a re-analysis of the deposited data

How the results depend on the processing

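The order of the 5 genes and the direction of all 4 differences between neighbours were kept under every alternative that could be computed. The means of the 5 genes moved by less than 1 SD in each case; Slc27a2 and Acsl1 have no value from last exons alone and Fabp1 none from internal events alone. Without 1 library the means ranged from 6017 to 7133 FPKM for Fabp1, 869 to 960 for Dbi, 349 to 447 for Slc27a2, 163 to 232 for Acsl1 and 40.4 to 59.5 for Cd36. The excess of Acsl1 over Cd36 ranged from 1.42 to 2.36, and the upstream share of Acsl1 from 32.9 to 68.8%. With events of at least 1 FPKM only, the Acsl1 intron was spliced out in 100% of the FPKM, since its retained form lies under that level.

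The list medians depended on the gene value. With internal events alone they were 0.031 for the fatty acid binding proteins, 7.98 for the transport proteins, 2.88 for the synthetases, 4.61 (4.605) for the acyl-CoA binding genes, 4.26 for the uptake genes, 4.61 for the users and 2.10 for all genes. With first exons alone they were 3.36 for the synthetases, 4.69 for the regulators and 2.03 for all genes, and with last exons alone 3.35, 4.70 and 1.77 for these 3 and 4.53 for the acyl-CoA binding genes. Different genes have a value under each setting. A pseudocount of 0.1 gave 4.72 for the regulators and 1.70 for all genes. Taking events by identifier only, an alternative added after the data were seen, gave 5.18 for the users, 5.18 for the regulators and 2.13 for all genes. Genes averaging 1 FPKM or more had a median of 2.77. Without 1 library the users ranged from 4.77 to 5.28, the regulators from 4.71 to 4.95 and all genes from 2.06 to 2.08. The fatty acid binding proteins ranged more widely, from 2.55 to 3.31. The uptake genes ranged from 5.26 to 5.60 and the transport proteins from 2.90 to 3.08. The synthetases ranged from 5.19 to 5.26 and the acyl-CoA binding genes from 4.98 to 5.07. No paired analysis was possible because all libraries belong to 1 group, so no samples pair across groups; the differences between genes were taken within each library. Depth is unknown, so the counting error could not be computed, and low values such as 0.0020 FPKM are of unknown precision.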
